A study of Mus musculus with 4 samples.

Results

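The 10 genes described here encode ligands and receptors of the fibroblast growth factor (FGF) and platelet-derived growth factor (PDGF) families: Fgf2, Fgf7, Fgf10, Fgf18, Fgfr1, Fgfr2, Pdgfa, Pdgfb, Pdgfra and Pdgfrb. They were taken by symbol, with every probe set of the array that is annotated to that symbol alone. This gave 20 of the 45037 probe sets tested and 10 of the 18193 genes with a probe set of their own. The cells were C3H10T1/2, an established mouse line labelled as mesenchymal stem cells. Control cells were not treated, and the other group received 100 ng/ml recombinant human BMP3, a secreted protein of the TGF-beta superfamily, for 6 hours. Each group held 2 arrays, named biological replicates 1 and 2, and the comparison asks how the transcripts of these ligands and receptors differed after BMP3. All 4 cultures were of 1 cell line, and the labels name no vehicle for the control cells.

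FGFs and PDGFs are secreted growth factors that act through receptor tyrosine kinases. FGFs bind their receptors together with heparan sulfate, while PDGFs are dimers that pair and activate PDGF receptor chains. The receptors signal through adaptor proteins to the RAS and MAP kinase cascade, to PI3 kinase and to phospholipase C gamma, and both families are known as mitogens of mesenchymal cells.

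Labelled as a mesenchymal line, the cells carried most of its markers. Of 12 measured mesenchymal markers, 11 reached a mean log2 value of 6, the level from which a probe set is called well measured here, and Nt5e lay below the array medians. Tek was the only endothelial marker of 6 to reach that level, Epcam the only epithelial one of 6, and 0 of 6 haematopoietic markers reached it. The endothelial list averaged 3.16 and 3.13 on control and 2.68 and 2.73 on BMP3 arrays, and this distance was that of Tek alone (difference -2.62). Pecam1, Cdh5, Kdr, Tie1 and Emcn lay below the array medians, and these 5 averaged 2.02 to 2.06 on the 4 arrays. Array medians ran from 3.31 to 3.40. Poly-A spike-ins, added RNAs that are not transcripts of the cells, averaged 8.02 and 7.25 on control and 6.80 and 6.80 on BMP3 arrays (log2), so they were lower in the BMP3 group. The 3' minus 5' difference of Gapdh was -0.55 and -0.56 in the controls against -0.09 and -0.44 with BMP3. That of Actb was 0.48 and 0.39 in the controls against 0.73 and 0.38 with BMP3, which overlapped. The part of these technical differences in the values below was not tested.

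Fgf7 had the lowest unadjusted p of the members, and the probe sets of Pdgfra shifted together on 1 array, so the 250 bases before the RefSeq transcription starts of this ligand gene and this receptor gene are printed here (GRCm38.p6, plus strand for both). Capitals mark the pentamer GTCTG, the reverse complement of CAGAC, a sequence that SMAD proteins are known to bind. The Fgf7 window is chr2:126034408-126034657 and the Pdgfra window is chr5:75152001-75152250.
Fgf7: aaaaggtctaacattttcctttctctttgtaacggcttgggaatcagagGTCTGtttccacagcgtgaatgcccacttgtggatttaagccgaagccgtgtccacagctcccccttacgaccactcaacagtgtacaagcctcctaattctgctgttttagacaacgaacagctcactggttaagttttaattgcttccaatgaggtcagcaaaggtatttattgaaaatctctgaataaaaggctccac
Pdgfra: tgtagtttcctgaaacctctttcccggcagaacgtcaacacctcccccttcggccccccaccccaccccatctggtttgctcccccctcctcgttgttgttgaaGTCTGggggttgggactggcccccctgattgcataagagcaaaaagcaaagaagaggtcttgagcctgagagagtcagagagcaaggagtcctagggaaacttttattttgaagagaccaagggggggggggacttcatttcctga
Each window held the pentamer once, beginning 201 bases before the start in Fgf7 and 146 bases before it in Pdgfra. On either strand, CAGAC or GTCTG was present in the windows of 4 of the 7 member genes with a promoter in the RefSeq table and in 42.2% of all 32851 windows of that length, so its presence does not set these genes apart. It is given as a description of the letters only.

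No member passed the test across the array. In the limma fit, with p-values adjusted by Benjamini-Hochberg across the whole array, 0 of the 20 member probe sets had an adjusted p under 0.05, as had 0 of all 45037 (0% called). At an unadjusted p under 0.05 there was 1 member probe set, beside 8.39% of all probe sets. A looser call, which asks for 1.5-fold or more at an unadjusted p under 0.05, was met by 1 of the 20 member probe sets, a probe set of Fgf7. This call was met by 2.81% of all probe sets (2.00% in the lower direction) and by 5.77% of the well-measured ones (3.99% in the lower direction), so 1 of 20 is near the background. The 6 member genes well measured at their brightest probe set had a median log2 difference of -0.26, with 2 higher and 4 lower in BMP3 arrays, beside 0.02 over all 9185 such genes. Without BMP3 replicate 2 that median was -0.03, with 3 higher and 3 lower, without BMP3 replicate 1 it was -0.47, and without control replicate 1 it was -0.13. For a single value, 2 arrays against 2 allow an exact permutation p no smaller than 0.333, so only the fit across all probe sets is used. In cultures measured in bulk, fewer cells of a kind and less RNA per cell cannot be told apart.

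**Figure D1:**
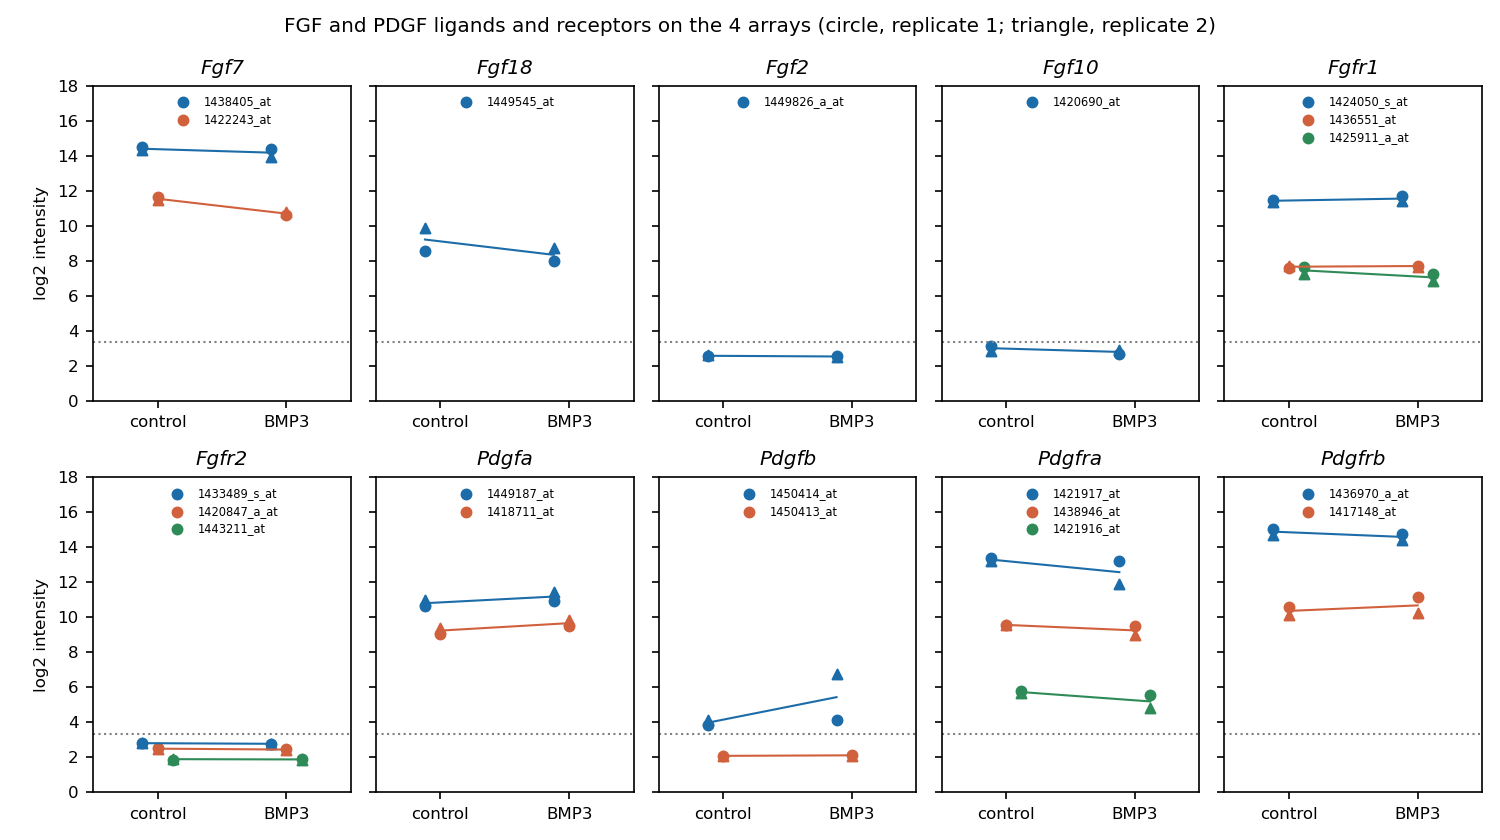
Log2 intensity of each of the 20 member probe sets on the 4 arrays, one panel per gene, with control and BMP3 on the x axis. Circles are replicate 1, triangles replicate 2, lines join group means, colours are probe sets and the dotted line is the mean of the array medians. Fgf2, Fgf10 and Fgfr2 lie below that line on all arrays, and heights of different probe sets are not comparable.

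Among the FGF ligands, Fgf7 had lower values in BMP3 arrays at 1 of its 2 probe sets. Fgf7 encodes keratinocyte growth factor, which mesenchymal cells secrete and which acts on epithelial cells. Probe set 1422243_at gave log2 values of 11.63 and 11.48 in the controls against 10.64 and 10.77 with BMP3, so the groups did not overlap and lay further apart than the replicates of either group. Its difference, BMP3 minus control, was -0.84 (SE 0.09, 95% interval -1.11 to -0.58, 1.79-fold lower, unadjusted p = 0.00173, limma adjusted p = 0.257). With any 1 array left out this difference stayed between -0.92 and -0.77. Averaging the 2 probe sets of Fgf7 gave -0.53 (unadjusted p = 0.00984), under 1.5-fold, so the looser call was not met.

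The brighter Fgf7 probe set, 1438405_at, did not show that difference. Its log2 values were 14.51 and 14.32 in the controls against 14.42 and 13.96 with BMP3, which overlapped, with BMP3 replicate 2 the lowest. The difference was -0.22 (SE 0.20, 95% interval -0.84 to 0.40, limma adjusted p = 0.897), and it was 0.01 without BMP3 replicate 2. On each array the brighter probe set exceeded the other by 2.88 and 2.84 in the controls and by 3.78 and 3.19 with BMP3, so the gap was wider with BMP3 and the groups did not overlap. The differences of the 2 probe sets were 0.62 apart. Over 9542 pairs of well-measured probe sets of the same gene the median distance was 0.20, and 7.86% of pairs were at least as far apart as those of Fgf7. Which parts of the transcript the probe sets cover is not given in the sources used here.

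Fgf18, a ligand known for its part in bone and cartilage growth, had control replicates 1.33 apart, more than the distance between the groups. Its only probe set gave 8.56 and 9.89 in the controls against 7.98 and 8.72 with BMP3 (log2). Replicate 1 of the control group lay below replicate 2 of the BMP3 group, so the groups overlapped. Within each replicate number the BMP3 value was the lower, though the labels do not say that a number marks a shared batch. The difference was -0.88 (SE 0.60, 95% interval -2.74 to 0.99, limma adjusted p = 0.874). Leaving out control replicate 2 gave -0.21, and leaving out control replicate 1 gave -1.54.

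Fgf2, which encodes basic FGF, and Fgf10, a mesenchymal ligand of limb and lung development, were at the dim end of the array. Fgf2 read 2.56 and 2.60 in the controls against 2.56 and 2.52 with BMP3, and Fgf10 read 3.16 and 2.87 in the controls against 2.71 and 2.89 with BMP3 (log2). These values lay below the lowest array median of 3.31, so no difference is given. A dim probe set does not show that the transcript was absent.

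Of the FGF receptors, Fgfr1 was well measured and Fgfr2 was not. Both encode receptor tyrosine kinases of this family, and Fgfr2 in its epithelial form is the receptor of FGF7 and FGF10. The 3 probe sets of Fgfr2 stayed between 1.88 and 2.83 on all arrays, below every array median. For Fgfr1, the brightest probe set, 1424050_s_at, gave 11.51 and 11.37 in the controls against 11.69 and 11.44 with BMP3. The groups overlapped, and the difference was 0.12 (SE 0.12, 95% interval -0.25 to 0.49, limma adjusted p = 0.901).

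The other Fgfr1 probe sets did not move together. Probe set 1436551_at gave 7.62 and 7.72 in the controls against 7.74 and 7.68 with BMP3, a difference of 0.04 (SE 0.06) with overlapping groups. Probe set 1425911_a_at, of a class designed to several transcripts of a gene, gave 7.64 and 7.28 in the controls against 7.24 and 6.88 with BMP3. These did not overlap, but the difference of -0.40 (SE 0.20, 95% interval -1.03 to 0.22, limma adjusted p = 0.814) was close to the range within each group, 0.36 in control and 0.35 in BMP3 arrays. Groups that do not overlap are common in a design of this size, at 36.3% of all probe sets and 48.6% of the well-measured ones. Of the 12 well-measured member probe sets, 4 did not overlap, with 3 lower and 1 higher in BMP3 arrays.

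**Figure D2:**
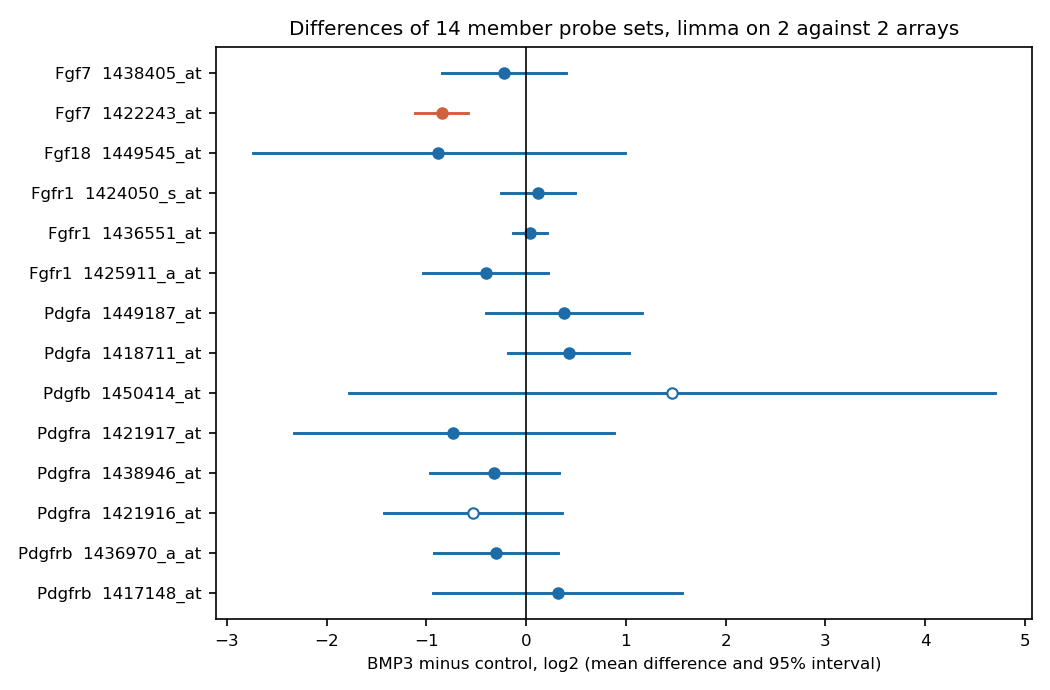
BMP3 minus control difference on the log2 scale (x axis) with its 95% interval for the 14 member probe sets not below the array medians in both groups (y axis). Open points average a log2 value under 6, and the single orange probe set, of Fgf7, is the only one with a looser call and the only one whose interval leaves out 0.

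The PDGF ligand gene Pdgfa was higher in BMP3 arrays at both of its probe sets by amounts that did not pass the test. Pdgfa encodes the A chain, which binds the alpha receptor. Probe set 1449187_at gave 10.64 and 10.99 in the controls against 10.93 and 11.46 with BMP3, which overlapped, a difference of 0.38 (SE 0.25, 95% interval -0.40 to 1.16, limma adjusted p = 0.868). Probe set 1418711_at gave 9.08 and 9.42 in the controls against 9.50 and 9.85 with BMP3, which did not overlap, a difference of 0.43 (SE 0.20, 95% interval -0.18 to 1.03, limma adjusted p = 0.776). The highest value was that of BMP3 replicate 2 and the lowest that of control replicate 1 at both probe sets. The gap between the probe sets stayed at 1.43 to 1.60 over the 4 arrays. With 1 array left out the differences ranged from 0.12 to 0.64 and from 0.25 to 0.60.

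Pdgfb, which encodes the B chain, a ligand of both PDGF receptors, was dim apart from 1 array. Probe set 1450414_at gave 3.85 and 4.12 in control and 4.13 in BMP3 replicate 1, against 6.76 in BMP3 replicate 2. The difference of 1.46 had an SE of 1.05 (limma adjusted p = 0.878), and it was 0.14 without BMP3 replicate 2. The other probe set, 1450413_at, lay between 2.08 and 2.14 on all arrays and did not show the high value. It was below the lowest array median of 3.31, so it says little about the reading of 1450414_at.

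Pdgfra, the alpha receptor gene and a marker of mesenchymal progenitors, was lowest in BMP3 replicate 2 at each of its 3 probe sets. Probe set 1421917_at gave 13.39 and 13.23 in control, 13.24 in BMP3 replicate 1 and 11.94 in BMP3 replicate 2. Probe set 1438946_at gave 9.56 and 9.59 in control, then 9.52 and 9.00, and the dimmer 1421916_at gave 5.78 and 5.69 in control, then 5.56 and 4.84. BMP3 replicate 2 thus lay 1.29, 0.52 and 0.72 below the nearest other array, while BMP3 replicate 1 was close to the control arrays. At 1438946_at and 1421916_at BMP3 replicate 1 also lay slightly below both controls, so the groups did not overlap there. Over all well-measured probe sets, which leave out 1421916_at, BMP3 replicate 2 lay at least 0.5 below the other 3 arrays at 4.73%. This was the largest such share of any array, above or below the others.

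The Pdgfra group differences were therefore no larger than the spread between the BMP3 replicates. They were -0.73 (SE 0.52), -0.32 (SE 0.21) and -0.53 (SE 0.29) in that order, with limma adjusted p of 0.878, 0.866 and 0.836. Without BMP3 replicate 2 they were -0.07, -0.06 and -0.17. Without BMP3 replicate 1 they were -1.38, -0.58 and -0.89. That fit has a single BMP3 array, which is assumed to vary like the controls, so no looser call is taken from it.

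Pdgfrb encodes the beta receptor, which binds the B chain, and its 2 probe sets had differences of opposite sign. Probe set 1436970_a_at gave 15.07 and 14.74 in the controls against 14.79 and 14.42 with BMP3, a difference of -0.30 (SE 0.20, 95% interval -0.92 to 0.32, limma adjusted p = 0.868). Probe set 1417148_at gave 10.59 and 10.16 in the controls against 11.15 and 10.23 with BMP3, a difference of 0.32 (SE 0.40, limma adjusted p = 0.926). The groups overlapped at both, and the second difference was -0.14 without BMP3 replicate 1. The gap between these probe sets was 4.48 and 4.58 in the controls against 3.64 and 4.18 with BMP3.

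**Figure D3:**
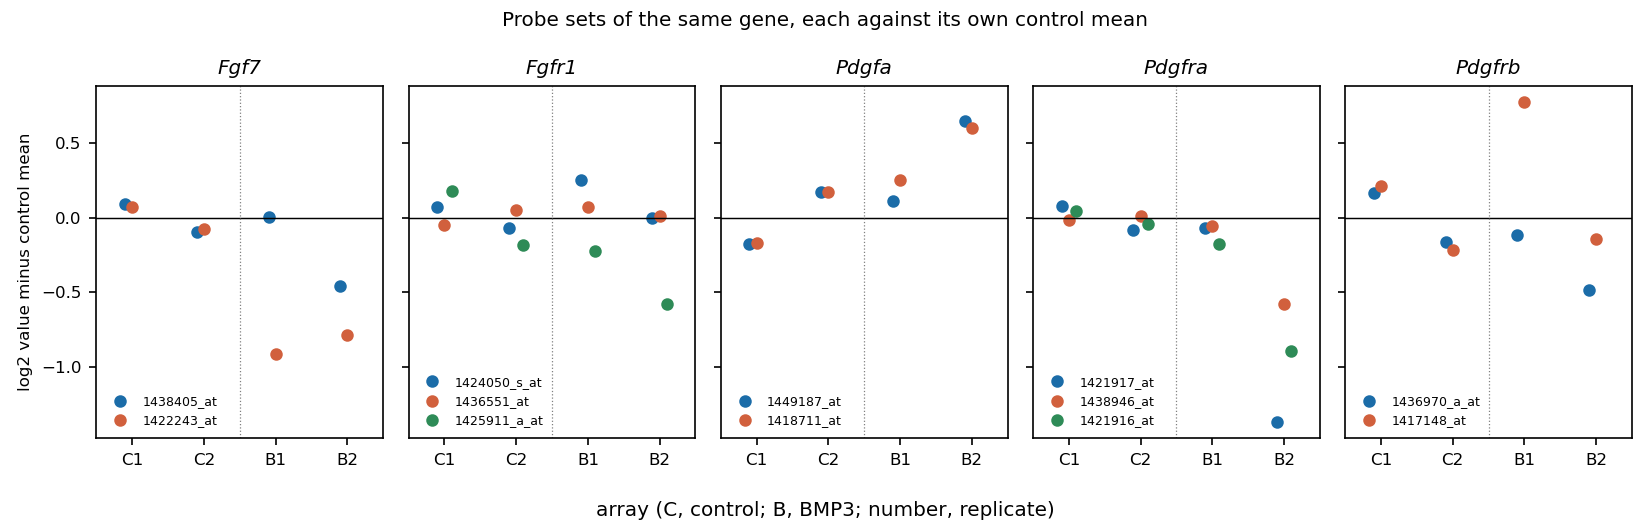
Log2 value of each probe set minus its own control mean (y axis) on control (C) and BMP3 (B) arrays of replicates 1 and 2 (x axis), for the 5 genes with several probe sets above the array medians. The probe sets of Pdgfra lie low together on BMP3 replicate 2, those of Pdgfa keep together on each array, and those of Fgf7 part on the BMP3 arrays.

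The rest of the pathway was read from 6 lists of 101 symbols, of which 92 were measured and 66 were well measured. At the brightest probe set, 0 of these 66 passed limma's adjusted threshold, 3 met the looser call higher and 5 lower. Etv4, among those higher, reached a mean of 6 only through its BMP3 arrays. Of all 9185 genes at that level, 4.83% met the looser call in either direction. Among the other FGF family genes listed, 0 of 18 were well measured, and their means ran from 1.76 to 3.25, below the array medians. Of the FGF ligand genes read here, Fgf7 and Fgf18 were thus the only ones well measured.

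Other FGF receptors, co-receptors and binding proteins had 5 well-measured members, 1 higher and 4 lower (median -0.23). Flrt3, which encodes a membrane protein that binds FGF receptors, gave 8.94 and 9.03 in the controls against 8.30 and 8.13 with BMP3, a difference of -0.77 (SE 0.08, limma adjusted p = 0.267). Its second probe set had -0.63 (SE 0.27). The list of other PDGF family ligands, receptor-like genes and the PDGF-activating protease gene Plat had 7 well-measured members, 2 higher and 5 lower (median -0.32), with 0 looser calls. Pdgfd, a PDGF ligand gene below that level, is named after its values were seen. It gave 4.49 and 4.63 in the controls against 3.71 and 3.97 with BMP3, which did not overlap, and met the looser call at -0.73 (SE 0.12, limma adjusted p = 0.349). The well-measured members of smallest p were Vegfb at -0.32 (SE 0.11, limma adjusted p = 0.635) and Vegfa at 0.41 (SE 0.16, limma adjusted p = 0.705). Vegfa had 0.22 at its dim second probe set. Vegfa and Vegfb encode vascular growth factors of the same superfamily.

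Adaptors and effectors below the receptors had 25 well-measured members, 11 higher and 14 lower (median -0.01). Rasa1, a RAS GTPase-activating protein that binds the PDGF beta receptor, was higher by 0.76 (SE 0.03), with limma adjusted p of 0.213. Gab1, a docking protein of PI3 kinase and SHP2, had a difference of -0.60 (SE 0.16, limma adjusted p = 0.496). The other Rasa1 probe sets had 1.12 and 0.50, and the other well-measured Gab1 probe set had -0.29.

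Genes known to respond to FGF and PDGF signals had 13 well-measured members, 7 higher and 6 lower (median 0.02), and the looser calls went both ways. Etv4, an ETS transcription factor gene induced by FGF signals, gave 5.86 and 5.39 in the controls against 7.71 and 6.66 with BMP3, a difference of 1.56 (SE 0.46, limma adjusted p = 0.547). Both Etv4 control values lay below 6, so Etv4 counts as well measured only through its BMP3 arrays. Its dimmer probe set had 1.21 (SE 0.50). Fos, an immediate early gene, gave 11.26 and 11.23 in the controls against 9.75 and 9.51 with BMP3, a difference of -1.62 (SE 0.10, limma adjusted p = 0.213). Heparan sulfate cofactors, which carry or build the chains that FGFs bind, had 16 well-measured members, 10 higher and 6 lower (median 0.13).

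In the heparan sulfate list Gpc1, a glypican gene, gave 10.46 and 10.57 in the controls against 11.15 and 11.13 with BMP3, a difference of 0.62 (SE 0.06). Gpc6, another glypican gene, gave 10.92 and 10.59 in the controls against 9.89 and 9.43 with BMP3, a difference of -1.10 (SE 0.22). Its other well-measured probe sets had smaller differences of -1.00 (SE 0.41), -0.43 (SE 0.26) and -0.28 (SE 0.19). Hs6st2, a heparan sulfate sulfotransferase gene, had -0.79 (SE 0.14), and its second well-measured probe set had -1.35 (SE 0.40). Limma adjusted p of these 3 genes was 0.247, 0.404 and 0.355. Their groups did not overlap, but they were named for a looser call. At the brightest probe set, 11 of the 16 well-measured genes of the list did not overlap, beside 48.6% of all well-measured probe sets.

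**Figure D4:**
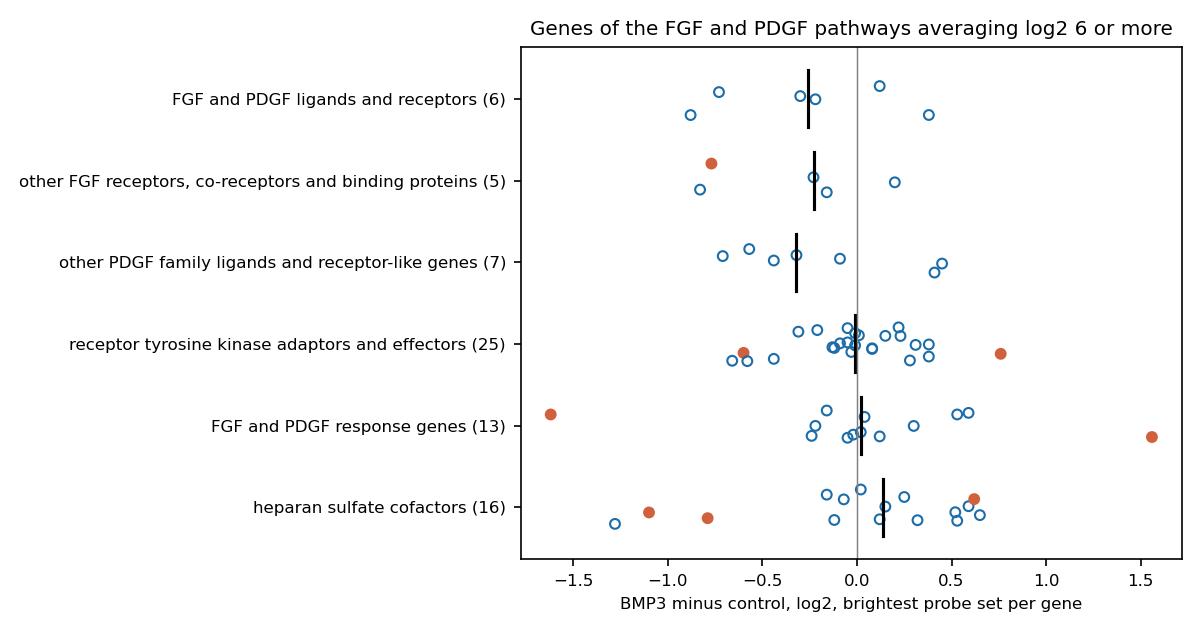
BMP3 minus control difference on the log2 scale (x axis) of each well-measured gene, at its brightest probe set, for the 6 members and 5 lists (y axis, number of genes in brackets). Orange points met the looser call and black bars are medians, which run from -0.32 to 0.13.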

How the data were processed

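Biotin-labelled RNA of each culture was put on its own Affymetrix array (4 in all), per the labels' protocols. The table the authors deposited has a single log2 value for each probe set on each array. That it is log2 was read from the range of the values. The submitters' processing notes name Partek. How background, normalization and probe summary were handled is not given in the sources used here. An equalising normalization would hide a change shared by most transcripts.

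After 64 control probe sets were left out, BMP3 was compared with control over 45037 probe sets in limma (version 3.58.1, R version 4.3.3, lmFit then eBayes, two-sided, Benjamini-Hochberg adjustment, no covariate). Symbols came from the platform annotation: 34945 probe sets carried 1, 932 several and 9160 none. A gene was read at its brightest probe set by mean, with every other probe set beside it for members and the other well-measured ones for named list genes. Named were all members and, from each list, up to 4 well-measured genes with a looser call, otherwise the 2 of smallest p. The distances between probe sets, the count of arrays standing apart and the naming of Pdgfd were added after values were seen. On simulated data with known changes the script was checked. The members and lists were chosen with earlier results of these data known. The number of arrays limits the precision. The p-values set each difference against the spread between these cultures, with the variance partly pooled over all probe sets tested.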

Additional observations from a re-analysis of the deposited data

How the results depend on the processing

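The fit was repeated with the replicate number as a block, without each array, under quantile normalization, median centring, cyclic loess, a filter at a log2 value of 6, an intensity trend with a robust prior, an offset of 16 and each gene's probe sets averaged. Probe sets past the adjusted threshold numbered 0 except under the robust trend, with 1, which is no member. With all 4 arrays and no block, Fgf7 1422243_at alone met the looser call, and it was not met by the mean of the Fgf7 probe sets (-0.53). Fits without an array take the lone array of its group to vary like the other group, so looser calls are not counted from them. Member probe sets with that call numbered 0 at a fold of at least 2, since Fgf7 1422243_at was 1.79-fold lower. With the replicate block they numbered 2, that of Fgf7 and that of Fgf18. All probe sets with the looser call then numbered 2164 (4.8%), against 1265 (2.81%) without the block. That block lowered the SE of Fgf18 from 0.60 to 0.18 and of Pdgfa 1449187_at from 0.25 to 0.08. For Pdgfa 1418711_at, Fgfr1 1425911_a_at and Pdgfrb 1436970_a_at it lowered the SE from 0.20 to 0.06. For Fgf7 1422243_at the SE rose from 0.09 to 0.10. The smallest limma adjusted p over the array was 0.136 with the block. Labels do not say that a number marks a shared batch. Deviations from the group mean of same-numbered arrays had r = 0.596 across 17152 probe sets. With 2 arrays in a group, those of replicate 2 mirror those of replicate 1, so r compares 1 pair of array differences. It cannot show whether a number marks a shared batch. Well-measured pathway list genes with a looser call numbered 13 against 8 with the replicate block, and 7 to 13 with 1 array left out (13 without BMP3 replicate 2). The median difference of all 10 member genes was -0.13, beside -0.01 over all genes. The middle genes were Fgf10 and Fgf2, both below the array medians, so this median rests on dim probe sets. It was -0.12 to -0.02 with 1 array left out, -0.09 under median centring and -0.04 with the offset. With the mean of probe sets it was -0.06, and with the filter, which leaves 6 genes, -0.26. Of 269 recomputed differences, 6 changed sign. With the mean of probe sets Fgfr1 had -0.08 and Pdgfrb 0.01. With 1 array left out, Fgf7 1438405_at ran from -0.45 to 0.01, Fgfr1 1424050_s_at from -0.00 to 0.25, Fgfr1 1436551_at from -0.01 to 0.09 and Pdgfrb 1417148_at from -0.14 to 0.78. The cause of these changes was not tested.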
